A study of Rattus norvegicus with 9 samples.

Results

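Rab GTPases are small membrane-bound switches, and each marks a step of vesicle traffic. In the GTP-bound form a Rab recruits effectors that bud, move, tether or fuse vesicles, exchange factors switch it on, GTPase-activating proteins switch it off, and GDI proteins hold the inactive form in the cytosol. In microglia, the resident macrophages of the retina, this traffic carries receptors to and from the surface, turns phagosomes into degradative compartments and releases cytokines and exosomes. Rab genes were taken as the rows of the count table whose symbol is Rab followed by a number with at most 1 further letter and digit, with a total of 90 or more counts over all libraries. Of 28343 genes in the table, 57 matched the symbol pattern and 45 reached the total. Rab38 (103 counts in all) lay just inside this limit and Rab19 (86 counts) just outside it. The other rows below it had totals of 1 to 69 counts, among them Rab27b with 48 and Rab3c with 3. All 45 members also passed the filter on low counts.

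The cells came from Dark Agouti rats, aged 8 to 10 weeks at injection in both groups. The 5 control libraries (numbered 1, 3, 4, 5 and 6) are from rats injected with citrate buffer, with normal blood glucose. The 4 diabetic libraries (numbered 1, 2, 4 and 5) are from rats given 55 mg/kg streptozotocin, which kills pancreatic beta cells. Those rats were hyperglycaemic, and the labels' protocols record insulin for rats with very high readings. Retinas were taken 4 weeks after the injection, and papain-digested cells labelled for CD11b were sorted by flow cytometry. CD11b is also carried by other myeloid cells. The number of rats per group in the protocol equals the number of libraries, but no label ties a library to 1 animal, so p-values measure the spread between these libraries.

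Library totals ran from 6228756 to 11332823 counts, the lowest being diabetic 4. Of 14 microglial markers, 13 were in the table and only Siglech of those was at 0 in every library, and the list took 2.53% to 3.51% of control and 3.06% to 3.25% of diabetic counts. Controls 4 and 6 stood apart in an inflammatory cytokine list of 20 genes, which held 1.6% and 2.53% of their counts against 0.155% to 0.358% in the other controls and 0.300% to 0.739% in the diabetic libraries. A cell isolation response list, of which 23 of 24 genes were in the table, took 2.37% and 2.93% of the counts in controls 4 and 6, 0.446% to 0.999% in the other controls and 1.30% to 2.08% in the diabetic libraries. For the members described in full, a difference that moved by over 1.5 times without controls 4 and 6 is therefore given both ways. In these bulk libraries fewer cells of a type and less RNA per cell cannot be told apart.

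The Rab genes together made up a small share of the counts. They held 0.491% to 0.526% of control counts (0.511% ± 0.0158, SD, n = 5) and 0.443% to 0.479% of diabetic counts (0.467% ± 0.0167, SD, n = 4), so the groups did not overlap in this share, which uses no scaling factor. Without Rab7b and Rab20, a choice made after their values were seen, the share was 0.452% to 0.511% in control and 0.430% to 0.466% in diabetic libraries, and the groups overlapped. Levels of different genes were compared per kilobase of the longest reference transcript in the deposited assemblies, which was found for 29 of the 45 members. On this scale the highest control levels were those of Rab31 (271 ± 13.8 CPM per kilobase, SD, n = 5), Rab6a (253 ± 27.1), Rab20 (216 ± 189.8), Rab10 (207 ± 20.6) and Rab7a (152 ± 12.0). The place of Rab20 rested on controls 4 and 6, at 431 and 765 CPM before division by length, against 117 to 145 CPM in the other controls. Rab7a lay within its SD of Rab8a (149.7 ± 4.79) and Rab2a (146 ± 8.86), whose reference transcript of 621 bases is short. That of Rab6a, of 976 bases, is also short and was found in the assembly of 1 library only. The lowest among the 29 were Rab3a (6.84 ± 1.74), Rab33b (9.14 ± 1.52) and Rab39a (9.36 ± 1.29). Rab1a, Rab5a, Rab5c and 13 other members had no such length and are not in this order.

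The central comparison asked whether Rab genes differed between diabetic and control microglia. None of the 45 passed an adjusted p of 0.05 by the edgeR quasi-likelihood F test, adjusted by Benjamini-Hochberg over all 11748 genes tested, of which 0.0681% passed. Differences below are diabetic minus control on the log2 scale, and adjusted p-values are from this test unless another is named. At an unadjusted p below 0.05 there were 13 Rab genes (28.9%), against a background of 18.9% of all genes. Of these, 10 were lower in diabetic libraries (22.2% of members, background 10.0%) and 3 were higher (6.67%, background 8.94%). The 10 lower genes were Rab6a, Rab31, Rab21, Rab10, Rab1a, Rab7b, Rab8b, Rab32, Rab20 and Rab27a, and the 3 higher genes were Rab33a, Rab3a and Rab13. The median log2 fold change over the 45 members was -0.094, beside 0.0017 over all genes, and 29 members lay below 0.

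The lower genes were nearly all abundant members, and abundant genes as a whole leaned the same way. Of the 22 members with a mean above the members' median of 52.7 CPM, 9 (40.9%) had an unadjusted p below 0.05 and were lower, 0 were higher, and their median log2 fold change was -0.14. Over all 3552 genes above that level 22.7% were lower and 4.50% higher at that p, with a median of -0.12. Of the 23 members at or below that level, 1 was lower (Rab7b) and 3 were higher at that p, where 4.53% of all genes at or below it were lower and 10.9% higher. The scaling moved these counts, for the members and for all genes. Without normalization factors, which raised the median of all genes to 0.12, 13 of the 45 members had an unadjusted p below 0.05. Of the 45, 7 were higher at that p (background 13.8% of all genes) and 6 lower (background 3.64%). The members' median was 0.026, which is 0.091 below that of all genes. With upper-quartile factors 16 of the 45 were at that p, 7 of them higher (background 12.9% of all genes) and 9 lower (background 5.58%). The 13 genes named above kept their sign under each scaling.

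**Figure D1:**
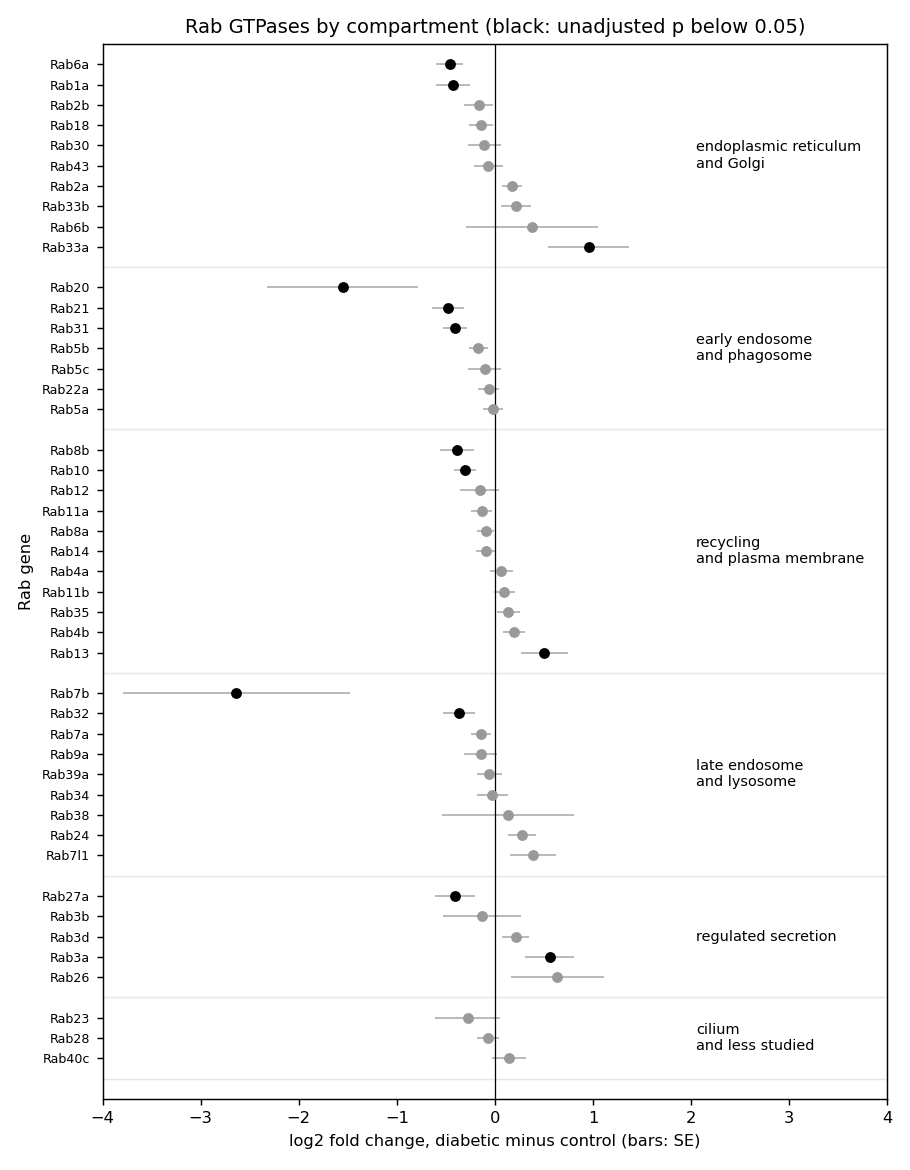
Log2 fold change of each of the 45 Rab genes, diabetic minus control (horizontal axis, points with SE bars), grouped by the compartment each Rab is best known for (rows). All 7 early endosome genes lie below 0 here, but 5 did with upper-quartile factors and 4 without normalization factors, and Rab7b and Rab20 have the largest changes and the widest bars.

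Promoter windows of 4 members are shown, each pair for its own reason. Rab7b and Rab20 were both highest in controls 4 and 6, and Rab6a and Rab31 had the smallest p-values of the family with groups that did not overlap. The windows run 5′ to 3′ from 250 bases before to 50 bases after the annotated start, from RefSeq on GRCr8: Rab7b at chr13:45673195-45673494 (plus strand), Rab20 at chr16:84721177-84721476 (plus strand), Rab6a at chr1:164369783-164370082 (plus strand) and Rab31 at chr9:112828043-112828342 (minus strand). Capitals mark every match, on either strand, to any of 6 motifs, none of which overlapped another in these windows. The kappaB-type site was searched as 3 G bases, any 2 bases, 2 T bases, any base and 2 C bases. The AP-1 site was searched as TGANTCA and the E-box as CACGTG. The Sp1 box was searched as GGGCGG, and the CCAAT box by the letters of its name. The TATA box was searched as TATAAA.
Rab7b: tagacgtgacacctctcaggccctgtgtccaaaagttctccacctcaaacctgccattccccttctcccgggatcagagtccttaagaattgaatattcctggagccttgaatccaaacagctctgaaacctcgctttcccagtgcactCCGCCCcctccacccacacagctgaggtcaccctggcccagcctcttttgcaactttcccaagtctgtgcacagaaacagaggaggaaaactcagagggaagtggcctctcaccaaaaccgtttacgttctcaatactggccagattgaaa
Rab20: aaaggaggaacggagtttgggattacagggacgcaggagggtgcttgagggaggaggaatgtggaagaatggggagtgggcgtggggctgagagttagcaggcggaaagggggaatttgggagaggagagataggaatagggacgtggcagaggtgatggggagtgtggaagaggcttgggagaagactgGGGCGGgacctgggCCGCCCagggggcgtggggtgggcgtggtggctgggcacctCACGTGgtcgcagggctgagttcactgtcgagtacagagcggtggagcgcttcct
Rab6a: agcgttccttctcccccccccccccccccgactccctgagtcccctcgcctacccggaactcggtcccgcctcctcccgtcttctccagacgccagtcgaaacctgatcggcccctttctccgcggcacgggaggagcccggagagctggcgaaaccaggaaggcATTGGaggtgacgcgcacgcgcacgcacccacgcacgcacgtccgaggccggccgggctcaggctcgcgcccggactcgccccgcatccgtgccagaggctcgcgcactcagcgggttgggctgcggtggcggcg
Rab31: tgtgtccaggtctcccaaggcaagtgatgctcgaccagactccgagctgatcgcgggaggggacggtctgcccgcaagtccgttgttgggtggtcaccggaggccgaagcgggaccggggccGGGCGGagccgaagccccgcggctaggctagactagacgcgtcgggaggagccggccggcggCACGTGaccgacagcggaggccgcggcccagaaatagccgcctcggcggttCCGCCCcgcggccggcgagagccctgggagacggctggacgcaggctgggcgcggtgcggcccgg

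The Rab7b window held a single Sp1 box match, and Rab20 held 2 Sp1 boxes and an E-box that ran over the annotated start. Rab31 also held an E-box and 2 Sp1 boxes, and Rab6a held only a CCAAT box on the reverse strand. The E-box shared by Rab20 and Rab31 occurs in 6.42% of all 33469 windows of the same length, and in those of 4 of the 37 members with a window. A kappaB-type match was found in none of the 4 printed windows, in 2 of the 37 member windows (5.41%) and in 5.00% of all windows. Sp1 boxes occur in 32 of the 37 member windows (86.5%) against 33.1% of all, and TATA boxes in 0 of 37 against 14.2%. Member windows were richer in G and C, with a median of 64.5% against 51.7% over all windows, and the Rab7b window held 52.0%. A match is a description of letters and not of a factor's binding, and no match says only that these letters are not in the window.

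Rabs of the early endosome and phagosome had log2 fold changes below 0 in 7 of 7 members, and 3 had an unadjusted p below 0.05. Over all genes 49.7% were below 0, and 10.0% were lower at that p, or 22.7% of the genes above 52.7 CPM. The direction depended on the scaling, with 5 of the 7 below 0 with upper-quartile factors, 4 without normalization factors and 6 without controls 4 and 6, and Rab5a above 0 in each of these. Rab31, which carries receptors between the Golgi and endosomes (Rnor6 chromosome 9, 113370033 to 113504605, minus strand), stood at 829, 949, 921, 922 and 919 normalised CPM in controls 1, 3, 4, 5 and 6 and at 665, 589, 748 and 738 CPM in diabetic 1, 2, 4 and 5. Every diabetic library lay below every control, a pattern with diabetic lower found for 4.16% of all genes. Control libraries averaged 908 ± 46.1 CPM (SD, n = 5) and diabetic ones 685 ± 73.9 CPM (SD, n = 4), which differ by -0.41 ± 0.12 (SE) on the log2 scale at an adjusted p of 0.0895. Its spread between controls was smaller than that of all but 2.91% of tested genes. Without controls 4 and 6 its log2 fold change was -0.40 (adjusted p = 0.144).

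Rab21, which takes integrins into endosomes (chromosome 7, 58261992 to 58286770, minus strand), had 71.5, 87.1, 106, 77.9 and 104 CPM in controls 1, 3, 4, 5 and 6 and 64.1, 61.9, 57.6 and 73.2 CPM in the diabetic libraries. Only diabetic 5 lay inside the control range. The log2 difference came to -0.48 ± 0.16 (SE) at an adjusted p of 0.119, and -0.30 without controls 4 and 6. Rab5a, Rab5b and Rab5c, which drive fusion of early endosomes, had log2 fold changes of -0.02, -0.17 and -0.10, and Rab22a, a related endosomal Rab, had -0.06, with adjusted p-values of 0.33 to 0.926. Rab5a was nearly level across the diabetic libraries, at 51.3 to 53.8 CPM, and ran from 46.1 to 60.4 CPM in controls.

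Rab20, a Rab of phagosomes and endosomes in macrophages (chromosome 16, 83358116 to 83382326, plus strand), had the third largest spread between controls in the family. Controls 1, 3 and 5 had 138, 117 and 145 CPM, control 4 had 431 CPM and control 6 had 765 CPM. Diabetic 1, 2, 4 and 5 had 119.7, 113, 85.0 and 117 CPM, on 533 to 1211 counts. Controls 4 and 6 set the control mean apart, and diabetic 4 was the lowest of all libraries. The means were 319 ± 281 CPM (SD, n = 5) and 109 ± 16.0 CPM (SD, n = 4), with a log2 difference of -1.55 ± 0.77 (SE) at an adjusted p of 0.249. It was -0.93 without control 6 and -0.30 (adjusted p = 0.295) without controls 4 and 6. Controls 4 and 6 were also highest in the deposited assemblies, which held the reference transcript of Rab20 in every library. It had 179 and 291 TPM in controls 4 and 6, 41.6 to 64.5 TPM in the other controls and 24.7 to 56.2 TPM in the diabetic libraries. These TPM come from the same libraries as the counts and did not follow them for every member. Rab10 had 106 TPM in control 4 and 22.4 to 24.9 TPM in the other controls, while its control levels were 486 to 615 CPM.

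Late endosomes and lysosomes are the site of Rab7b, the member with the largest spread. Rab7b (chromosome 13, 48455923 to 48482138, plus strand) works between late endosomes and the Golgi and is known in macrophages for lowering the Toll-like receptors TLR4 and TLR9. Controls 1 and 5 had 6.71 and 6.43 CPM, control 3 had 30.8 CPM, and controls 4 and 6 had 80.2 and 82.2 CPM. Diabetic 1, 2, 4 and 5 had 5.83, 7.77, 3.99 and 8.51 CPM, on 25 to 85 counts. The diabetic libraries thus lay beside controls 1 and 5, and below the other 3 controls. The means were 41.3 ± 37.8 CPM (SD, n = 5) and 6.52 ± 2.03 CPM (SD, n = 4), and the control SD on the log2 scale, 1.81, was above that of 98.9% of tested genes. The log2 difference came to -2.63 ± 1.16 (SE) at an adjusted p of 0.199.

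The Rab7b difference rested on which controls were counted. Without controls 4 and 6 its log2 fold change was -1.16 (adjusted p = 0.434), and of the 3 controls left only control 3 lay above the diabetic range. The inflammatory cytokine share of control 3 (0.155%) was the lowest of all libraries. With limma-voom it was -1.85 (adjusted p = 0.467), and with DESeq2 -2.66 (adjusted p = 0.0319). The assemblies held transcripts at the Rab7b locus on its strand in controls 3, 4 and 6 (13.5, 23.8 and 3.62 TPM) and none in the other 6 libraries. Control 6, the highest in CPM, was thus the lowest of these in TPM. Il1b, which encodes interleukin-1 beta and is in the cytokine list, had 2672 and 6392 CPM in controls 4 and 6 and 56.5 CPM in control 3. The part of cytokine activation in the Rab7b and Rab20 values was not tested beyond these values.

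**Figure D2:**
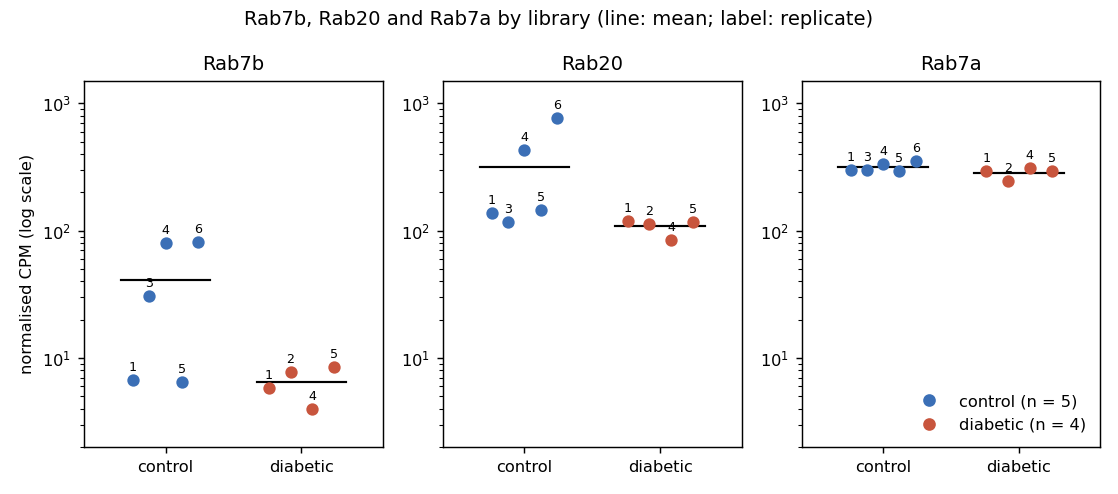
Normalised CPM (log axis) of Rab7b, Rab20 and Rab7a in each library, with replicate numbers beside the points and a line at each group's mean. Rab7b spans 6.43 to 82.2 CPM among controls and 3.99 to 8.51 CPM among diabetic libraries, Rab20 is highest in controls 4 and 6, and Rab7a stays between 247 and 352 CPM.

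Rab7a, the Rab that brings late endosomes to fusion with lysosomes (chromosome 4, 119910478 to 119959173, minus strand), was by contrast even. It stood at 299.9, 299.6, 332, 296 and 352 CPM in the controls and 293, 247, 309 and 294 CPM in the diabetic libraries. The groups overlapped, and the log2 difference came to -0.15 ± 0.10 (SE) at an adjusted p of 0.408, and -0.07 without controls 4 and 6. Rab7b counts were 2.17% and 2.24% of Rab7a counts in controls 5 and 1, 10.3% in control 3, and 24.2% and 23.4% in controls 4 and 6. They were 1.29% to 3.15% in the diabetic libraries.

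Rab32, which serves lysosome-related organelles, had 116, 129, 158, 142 and 199 CPM in the controls and 129, 102, 110.0 and 121 CPM in the diabetic libraries. Its log2 difference came to -0.37 ± 0.17 (SE) at an adjusted p of 0.211, and -0.17 without controls 4 and 6. Its close relative Rab38 was near the detection limit, with 6 to 18 counts in controls and 19, 0, 14 and 12 counts in the diabetic libraries. The 0 in diabetic 2 leaves room for a level of at most 0.328 CPM as far as counting error goes. That limit is on the raw library total, without the TMM factor. Rab24, linked to autophagy (log2 fold change 0.27), and Rab7l1, an older symbol of Rab29, the partner of the kinase LRRK2 (0.39), had higher diabetic means with adjusted p-values of 0.282 and 0.336. Rab7l1 reached 123 CPM in diabetic 2 against 59.1 to 79.6 CPM in the rest of its group and 48.9 to 79.9 CPM in controls. Rab9a, Rab34 and Rab39a had log2 fold changes of -0.14, -0.02 and -0.06.

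Rabs of the endoplasmic reticulum and Golgi held the member with the smallest p-value. Rab6a, which moves cargo within and out of the Golgi (chromosome 1, 165625350 to 165662089, plus strand), had 213, 261, 255, 228 and 279 CPM in controls 1, 3, 4, 5 and 6 and 189, 164, 168 and 197 CPM in the diabetic libraries. No diabetic library reached the lowest control. The means were 247 ± 26.4 CPM (SD, n = 5) and 179.6 ± 15.8 CPM (SD, n = 4), which differ by -0.46 ± 0.14 (SE) on the log2 scale at an adjusted p of 0.0895. Without control 1 the adjusted p was 0.0464 in a fit that called 0.646% of all genes, and without controls 4 and 6 the log2 fold change was -0.39 (adjusted p = 0.147).

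Rab1a, needed for transport from the endoplasmic reticulum to the Golgi, had 247, 304, 365, 249 and 406 CPM in the controls and 238, 212, 241 and 243 CPM in the diabetic libraries. The groups did not overlap, but the gap between diabetic 5 (243 CPM) and control 1 (247 CPM) was small. The separation depended on the TMM factors. As a share of raw library totals, diabetic 1 (2407 of 9452660 counts) lay slightly above control 1 (2616 of 10288077). The log2 difference came to -0.43 ± 0.17 (SE) at an adjusted p of 0.160, and -0.20 (adjusted p = 0.371) without controls 4 and 6. Rab33a, a secretory Rab best known in neurons and lymphocytes, had 8 to 13 counts in controls and 14 to 25 counts in diabetic libraries. Its means were 1.07 ± 0.372 CPM (SD, n = 5) and 2.06 ± 0.369 CPM (SD, n = 4), with every diabetic library above every control, a pattern found for 4.27% of all genes. Its log2 difference came to 0.96 ± 0.41 (SE) at an adjusted p of 0.194.

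Rab6b, the neuronal counterpart of Rab6a, had the second largest spread between controls. It stood at 2.08, 0.347, 7.10, 1.82 and 2.71 CPM in the controls and 6.13, 4.29, 1.75 and 2.20 CPM in the diabetic libraries, and its log2 difference of 0.38 ± 0.67 (SE) at an adjusted p of 0.773 turned to -0.0063 without diabetic 1, was 1.08 without control 4 and was 1.36 (adjusted p = 0.323) without controls 4 and 6. The remaining Golgi Rabs, Rab2a, Rab2b, Rab18, Rab30, Rab33b and Rab43, had log2 fold changes from -0.17 (Rab2b) to 0.22 (Rab33b) and adjusted p-values of 0.323 to 0.815.

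**Figure D3:**
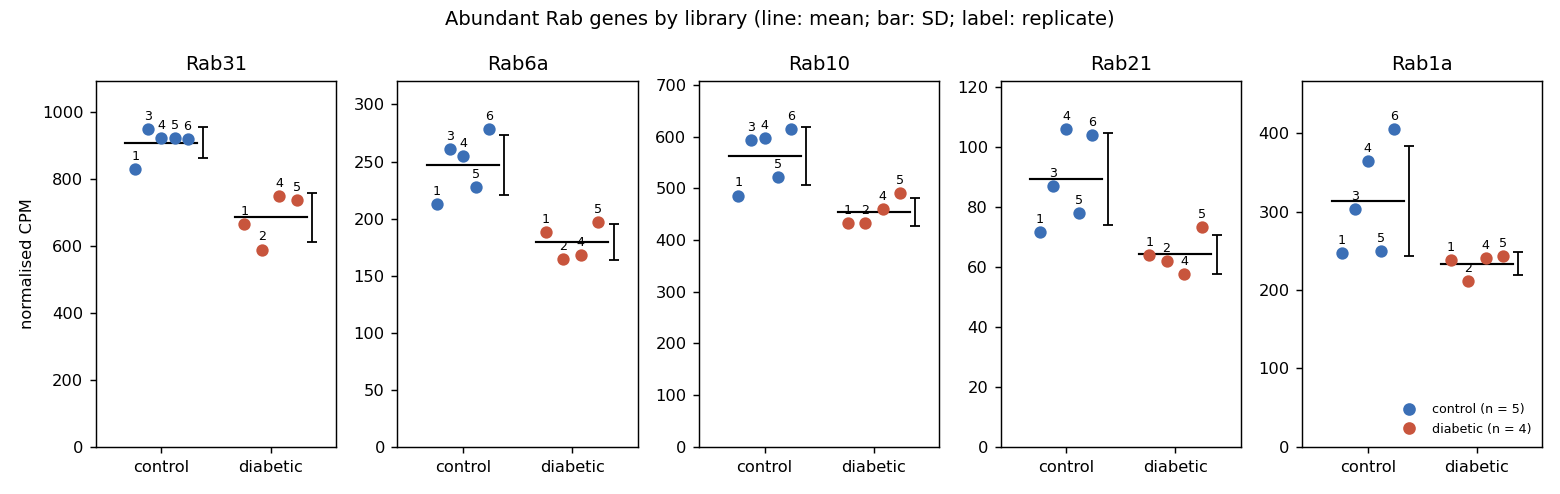
Normalised CPM (vertical axes, from 0) of the 5 lower Rab genes with the smallest p-values in each library, with replicate numbers, the group mean as a line and the SD as a bar. Rab31, Rab6a and Rab1a do not overlap between groups, and in Rab10 and Rab21 diabetic 5 reaches into the control range.

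Among Rabs of recycling and the plasma membrane, Rab10 stood first by p-value. Rab10 brings glucose transporter GLUT4 vesicles and, in macrophages, TLR4 to the surface (chromosome 6, 27668403 to 27721120, minus strand). It had 486, 593, 598, 522 and 615 CPM in the controls and 433, 433, 461 and 490.5 CPM in the diabetic libraries. Only diabetic 5 passed the lowest control. The means were 563 ± 55.8 CPM (SD, n = 5) and 454 ± 27.4 CPM (SD, n = 4), a log2 difference of -0.31 ± 0.11 (SE) at an adjusted p of 0.126, and -0.24 (adjusted p = 0.273) without controls 4 and 6. Rab8b, of polarised membrane delivery, had a log2 difference of -0.39 ± 0.17 (SE) at an adjusted p of 0.203, and -0.19 without controls 4 and 6.

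Rab13, a Rab of cell junctions and the cell edge (chromosome 2, 189581644 to 189586338, plus strand), was 12.9, 22.4, 12.4, 11 and 14.5 CPM in controls 1, 3, 4, 5 and 6 and 21.9, 19.5, 25.0 and 16.9 CPM in the diabetic libraries. Control 3 lay among the diabetic libraries and the other controls below all of them. The log2 difference came to 0.51 ± 0.24 (SE) at an adjusted p of 0.226. A list of monocyte and border macrophage genes also had a higher diabetic mean share. Of its 12 genes 11 were in the table, the monocyte receptor gene Ccr2 and Cd209a were at 0 in every library, and the list took 0.0353% to 0.0804% of control counts, highest in control 3, and 0.0755% to 0.166% of diabetic counts. The orders were not the same, as the list was highest in diabetic 1 and Rab13 in diabetic 4, and control 5, lowest in Rab13, was second among controls in the list. The part of these cells in the Rab13 values was not tested.

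The core recycling Rabs were close to level. Rab11a and Rab11b, of slow recycling, had log2 fold changes of -0.13 and 0.09, Rab4a, of fast recycling, had 0.07, and Rab8a, Rab14 and Rab35 had -0.10, -0.09 and 0.14, with adjusted p-values of 0.462 to 0.773. Rab4b ran from 34.2 to 39.8 CPM in controls and from 40.3 to 47.8 CPM in diabetic libraries without overlap, yet the log2 difference was only 0.20 ± 0.11 (SE) at an adjusted p of 0.309. Rab12 was at 6.44 to 12.4 CPM in all libraries with a log2 fold change of -0.15. In Rab8a the controls differed by less than in all but 0.545% of tested genes.

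Rabs of regulated secretion split by direction. Rab3a, the Rab of synaptic vesicle release (chromosome 16, 20435101 to 20439206, minus strand), had 11.4, 6.25, 11.4, 7.50 and 10.5 CPM in the controls and 18, 14, 12.1 and 11.1 CPM in the diabetic libraries, with a log2 difference of 0.56 ± 0.25 (SE) at an adjusted p of 0.210. Diabetic 5 lay inside the control range. An inner retinal neuron list, all 17 of whose genes had counts, held 0.00879% to 0.0198% of control counts and 0.0411%, 0.0267%, 0.0199% and 0.0129% of the counts of diabetic 1, 2, 4 and 5, the same order as Rab3a among the diabetic libraries. Among controls, control 1 was highest and control 3 lowest in both Rab3a and the list. The controls between them differed in order, since control 4, level with control 1 in Rab3a, had 0.0113% and control 5, at 7.50 CPM of Rab3a, had 0.0132%. The part of neuronal RNA in the Rab3a values was not tested. Rab27a, which releases exosomes and secretory lysosomes, had 133, 124, 178, 142 and 244 CPM in the controls and 128, 108, 132 and 128 CPM in the diabetic libraries. Its log2 difference came to -0.41 ± 0.21 (SE) at an adjusted p of 0.260, and -0.11 without controls 4 and 6. Rab3d, of secretory granules, was 14.8 to 19.0 CPM in controls and 19.3 to 20.6 CPM in diabetic libraries without overlap, with a log2 difference of 0.21 ± 0.14 (SE) at an adjusted p of 0.366. Rab3b and Rab26 were at most at 5.16 CPM in every library, with log2 fold changes of -0.13 and 0.64.

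The remaining members, Rab23 of ciliary Hedgehog signalling, Rab28 and Rab40c, had log2 fold changes of -0.28, -0.07 and 0.14. Their adjusted p-values were 0.647 to 0.739. On normalised CPM, 3 of all 45 members had diabetic libraries wholly below the controls (Rab1a, Rab31 and Rab6a) and 3 wholly above (Rab33a, Rab3d and Rab4b). That is 6.67% in each direction against the 4.16% and 4.27% of all genes.

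Close relatives within the family were compared as ratios of their counts inside each library, which no scaling factor can alter. These comparisons were chosen after the data were seen. Over 13 pairs, none passed an adjusted p of 0.05 in a two-sided exact permutation test of the group labels. The smallest p of this test over 126 arrangements is 0.00794. A single pair at that p could not pass after adjustment over 13 pairs, so the absence of calls does not show that the ratios were alike. Rab3b counts were 29.2% to 49.4% of Rab3a counts in controls and 15.8% to 27.7% in diabetic libraries, without overlap (log2 difference -0.74, exact permutation p = 0.00794, adjusted 0.0688). They rest on 12 to 44 Rab3b counts per library, and the difference was -0.57 (exact permutation p = 0.0857) without controls 4 and 6. Rab22a counts were 4.69% to 6.16% of those of its nearest relative Rab31 in controls and 6.22% to 7.85% in diabetic libraries, without overlap (log2 difference 0.35, exact permutation p = 0.0159, adjusted 0.0688). Leaving out any single library kept this difference between 0.29 and 0.40. Rab2b counts were 36.6% to 53.6% of Rab2a counts in controls and 26.8% to 35.6% in diabetic libraries (log2 difference -0.35, exact permutation p = 0.0159, adjusted 0.0688). The other 10 pairs, among them Rab7b over Rab7a (-1.82, exact permutation p = 0.111), had unadjusted p-values of 0.0873 to 0.722. Without controls 4 and 6, where the smallest possible p is 0.0286, Rab7b over Rab7a was -0.74 (exact permutation p = 0.429). Rab6b over Rab6a went from 1.19 to 1.91 there, and Rab33a over Rab33b from 0.77 to 1.07, both at that smallest exact permutation p before adjustment.

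**Figure D4:**
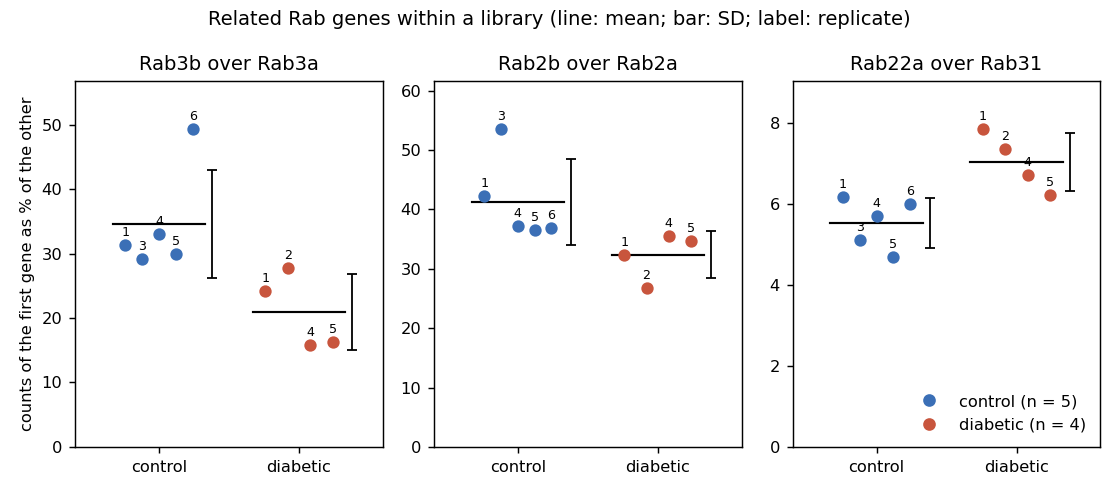
Counts of a Rab gene as a percentage of those of a relative in the same library (vertical axes, from 0), with replicate numbers, group means as lines and SD bars. Rab3b over Rab3a and Rab2b over Rab2a are lower, and Rab22a over Rab31 higher, in all 4 diabetic libraries than in any control.

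The regulators of Rabs were near the background in number and leaned lower. Of 130 listed exchange factors, GTPase-activating proteins, GDI, escort and prenylation genes, effectors and kinases, 126 were in the table and 111 were tested. None passed an adjusted p of 0.05 in edgeR's test, and 20 (18.0%) had an unadjusted p below 0.05, near the 18.9% of all genes. Of these, 16 were lower (14.4%, background 10.0%) and 4 higher (3.60%, background 8.94%). Of the 111, 7 were lower and 7 higher at that p without normalization factors (background 3.64% lower and 13.8% higher). With upper-quartile factors 9 were lower and 7 higher (background 5.58% and 12.9%). The background also depends on level, as 22.7% of all genes above 52.7 CPM were lower and 4.53% of those at or below it. Regulators were not compared with genes of like level, so their lean cannot be told apart from that of abundant genes. The count of 20 became 33, 30 of them lower, without control 1 (background 23.5%, lower 13.1%), 13 without diabetic 2 (14.9%) and 10 without diabetic 4 (12.8%). By list, 5 of 34 exchange factors were at that p in the full set of libraries (14.7%), all lower, with 4 lower and 3 higher of 32 GTPase-activating proteins, 6 lower and 1 higher of 39 effectors and kinases, and 1 lower of 6 GDI, escort and prenylation genes. The smallest p-values were those of Rilpl1, an effector of phosphorylated Rabs (control 39.7 ± 2.82 CPM, diabetic 26.7 ± 4.47 CPM, log2 difference -0.57, adjusted p = 0.0895), and Tbc1d1, a GTPase-activating protein of Rab10 among others (128 ± 10.1 and 97.6 ± 8.01 CPM, -0.40, adjusted p = 0.0933). Osbpl1a and Vps41, partners of Rab7a on late endosomes, had log2 fold changes of -0.39 and -0.41, and the exchange factors Dennd5a, Rin2 and Dennd4a had -0.38, -0.39 and -0.69. Dennd4a stood at 129 and 123 CPM in controls 4 and 6 and at 56.4 to 84.5 CPM in the other controls, and without controls 4 and 6 it was -0.28 and Rin2 -0.23. Among the higher genes Tbc1d10c averaged 2.50 ± 1.04 CPM (control) and 5.45 ± 1.21 CPM (diabetic) (1.11, adjusted p = 0.126). Gdi2, the main holder of inactive Rabs, had -0.26 (adjusted p = 0.197), and Rabgap1 had -0.24.

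The extremes of the family gathered in certain libraries. Control 6 had the highest level of all 9 libraries for 15 of the 45 members (33.3%, against 19.2% of all genes), and diabetic 2 had the lowest for 18 members (40.0%, against 12.4%). Diabetic 4, the shallowest library, was highest for 7 members (15.6%, against 16.9%). Without diabetic 2 the number of members at an unadjusted p below 0.05 was 8 in place of 13, 6 of them lower (background 14.9%, lower 6.98%). It was 8 without control 4 (background 14.5%), 8 without diabetic 1 (15.1%) and 7 without diabetic 4 (12.8%). It was also 8 without controls 4 and 6 (background 14.9%), with Rab31, Rab6a, Rab10, Rab21 and Rab20 lower (background 7.71%) and Rab33a, Rab3a and Rab6b higher (7.20%).

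Some other fits called more Rab genes, and limma-voom did not. DESeq2's Wald test gave 5 members at an adjusted p below 0.05, Rab6a, Rab31, Rab21, Rab10 and Rab7b, all lower. It called 3.34% of 17805 genes, a set that, unlike the 11748 used elsewhere, includes genes below the filter on low counts. With the cell isolation share as a covariate, edgeR called 11 members, 9 lower and 2 higher, and 13.4% of all genes. Rab20 had the smallest adjusted p there (0.00430), at a log2 fold change of -1.73, and the 2 higher genes were Rab13 and Rab24. Limma-voom called 0 members, with 10 at an unadjusted p below 0.05 (background 17.6%). In the authors' deposited table, 2 members had an FDR below 0.05, Rab7b (log2 fold change -2.45, FDR 0.00502) and Rab20 (-1.35, FDR 0.0464), where 2.10% of the 12069 listed genes did. The log2 fold changes of the members in the authors' deposited table differed by at most 0.0131 from those of the fit without normalization factors, and 18 of the 45 were below 0 there.

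**Figure D5:**
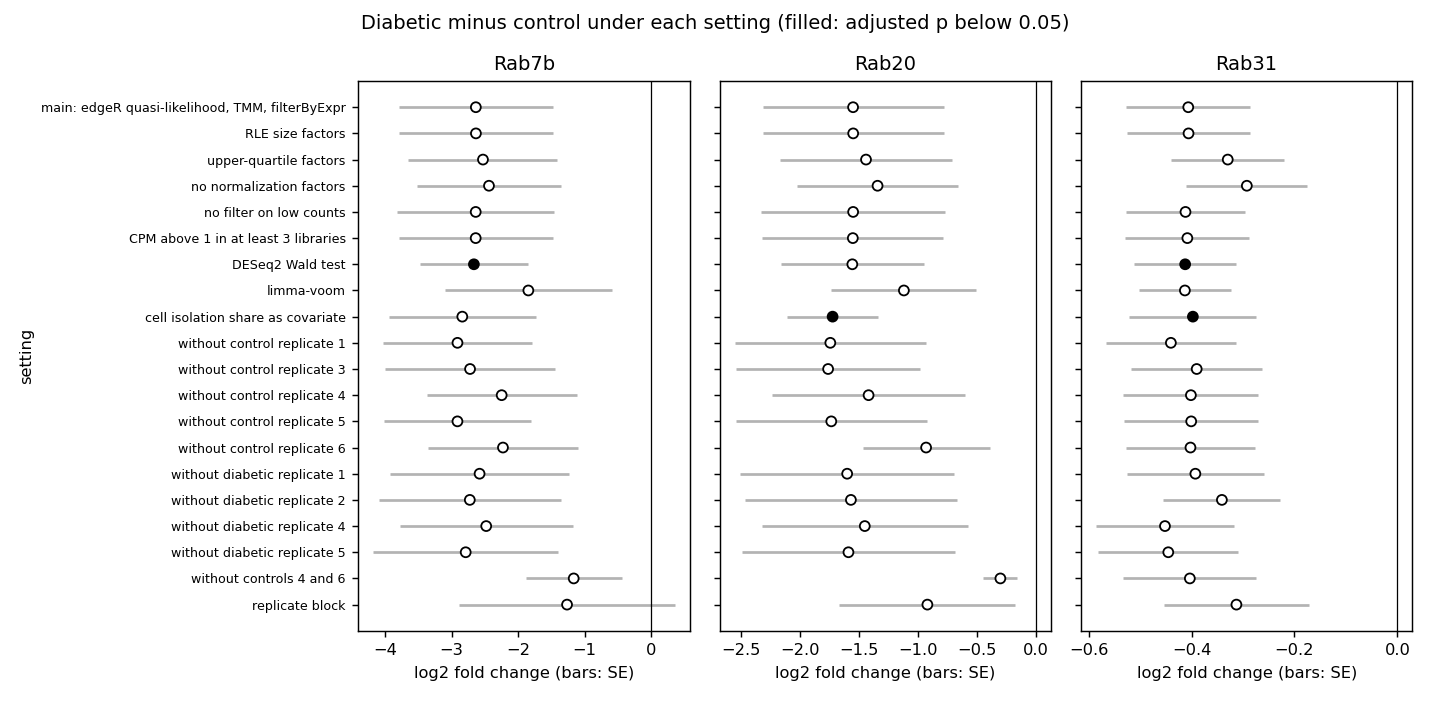
Log2 fold change of Rab7b, Rab20 and Rab31, diabetic minus control (horizontal axes, points with SE bars), under each processing setting (rows), with filled points at an adjusted p below 0.05. Rab31 stays between -0.45 and -0.29, whereas Rab7b moves to -1.16 and Rab20 to -0.30 without controls 4 and 6.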

How the data were processed

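RNA of CD11b-sorted rat retinal cells was preamplified and sequenced in 9 libraries. The submitters' processing notes name bcl2fastq 2.18.0.12, TopHat2 2.0.14, StringTie 1.2.4 and edgeR, and the build Rnor_6.0. The counting program is not given in the sources used here, nor is a strand setting, so reads of overlapping, antisense or near-identical genes can be shared. The authors deposited raw counts per gene symbol. Their second table holds a log2 fold change, p-value and FDR per gene, as the authors deposited it, with no model named. Transcript assemblies hold TPM per transcript, scaled within each library by the authors per the file headers, which also name the Ensembl Rnor6 annotation.

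Counts were filtered with filterByExpr (minimum count 10, minimum total 15), scaled with TMM factors and tested with edgeR 4.0.16 (R 4.3.3) by the quasi-likelihood F test with robust dispersion, diabetic against control, without covariates. Benjamini-Hochberg adjustment ran over 11748 genes. Each SE was derived from the log2 fold change and the normal quantile that its p-value corresponds to. Normalised CPM uses TMM-scaled totals. The common biological coefficient of variation was 0.251. Alternatives used limma 3.58.1 (voom), DESeq2 1.42.0, other scalings and filters, a covariate and subsets of libraries. Full statistics are given for Rab7b and Rab7a, up to 5 members per direction with the smallest unadjusted p below 0.05, the 5 highest per kilobase and the 3 most variable among controls, and for up to 3 regulators per list. Members and lists were chosen with earlier results of these data known. No 2 libraries were alike within sampling noise (chi-square per degree of freedom at least 11.7 within groups). Counts are reads, since no molecular identifiers are named, and limits from counts cover counting error only.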

Additional observations from a re-analysis of the deposited data

Results flagged for a closer look

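Within each group, a library far from the others was looked for in each of the 45 Rab genes, which makes 90 groups of values. Chance sets apart a value in about 1 in 20 groups, or 4.5 here, and 5 were found. Rab31 was lowest in control 1, at 829 CPM, with the other controls at 919 to 949 CPM. Rab9a, which returns mannose 6-phosphate receptors from late endosomes, was highest among controls in control 3, at 36.9 CPM. In diabetic 2, Rab1a was lowest of its group at 212 CPM and Rab4a highest at 53.4 CPM. In diabetic 4, the shallowest library, Rab2a was highest of its group at 117 CPM.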

How the results depend on the processing

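Over 19 alternatives, the number of Rab genes at an adjusted p below 0.05 stayed at 0 in 16, and was 5 by DESeq2, 11 with the cell isolation covariate and 0 to 1 when single libraries were left out, the 1 being Rab6a without control 1. The number at an unadjusted p below 0.05 was 7 to 13 when single libraries were left out, lowest without diabetic 4, with 8 without controls 4 and 6 and 4 with the replicate block (9.61% of all genes). The members' median log2 fold change was 0.026 without normalization factors and -0.12 to -0.051 when single libraries were left out. Regulator calls were 6 by DESeq2, which called 3.34% of all genes, and 16 with the covariate (13.4% of all genes). Regulators at an unadjusted p below 0.05 were 35 with the covariate (30.5% of all genes) and 8 with the replicate block (9.61%). Rab7b was -2.66 by DESeq2 and past the threshold there, and its adjusted p ran from 0.0319 to 0.783 over all alternatives. Of 266 results on 14 other Rab genes under these alternatives 250 kept their side of the threshold, 15 passed it in addition, and Rab6b turned to -0.0063 without diabetic 1 and was at most 1.08 when other single libraries were left out. The replicate block used the numbers 1, 4 and 5 that both groups share. Deviations of same-numbered libraries correlated at 0.201, -0.114 and 0.0156. Differently numbered libraries were not compared, so these values cannot tell whether the samples share more than a number. With the replicate block the log2 fold changes were -1.26 for Rab7b, -0.31 for Rab31 and -0.33 for Rab6a. The members' median was -0.016 in that fit, and 0 genes of any kind passed. The ratio of Rab2b to Rab2a had exact permutation p-values of 0.0536 to 0.107 without each diabetic library in turn. Depth limits Rab38, Rab33a, Rab26, Rab23, Rab3b and Rab6b most, which had 0 to 66 counts per library.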
